A study of Homo sapiens with 36 samples.

Results

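The zinc finger genes of chromosome 19 were the 246 GENCODE protein-coding genes of that chromosome whose symbol is ZNF followed by digits and an optional final letter. They made up 246 of the 20033 protein-coding genes considered, 16.7% of the 1476 genes of chromosome 19 and 48.4% of the 508 ZNF genes of the genome. The rule used names and positions only, and no measured value. Cut&Run, in which an antibody brings a nuclease to a chromatin protein and the released DNA fragments are sequenced, was performed on 786-O cells, a clear cell renal cell carcinoma line that lacks working VHL and functional HIF-1α, and in which HIF-2α escapes degradation without hypoxia. The series held 36 libraries of 6 lines, each with 3 replicates of an anti-V5 library and 3 of an IgG control library. WT cells carried no V5 tag, so their anti-V5 peaks measure the background of the antibody. The HIF-2a KIN line was a single clone, A31, with V5 and Halo tags on both copies of the endogenous HIF-2α gene. The other 4 lines were made from 786-O cells by stable expression of a V5-Halo fusion from the L30 promoter. They carried HIF-2a, HIF-1a, the HIF-2a/1a chimera (residues 1 to 365 of HIF-2α joined to residues 364 to 826 of HIF-1α) or the HIF-1a/2a chimera (residues 1 to 363 of HIF-1α joined to residues 366 to 870 of HIF-2α). Each chimera thus joins the N-terminal DNA-binding and dimerization part of a HIF-α, here called the DBD, to the intrinsically disordered region (IDR) of the other. The label gives no knockout of the cells' own untagged HIF-2α in these 4 lines.

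Zinc finger proteins of the C2H2 type read DNA with tandem fingers, each held by a zinc ion between a pair of cysteines and a pair of histidines. Most of those encoded on human chromosome 19 also carry a KRAB domain, which recruits TRIM28 and the methyltransferase SETDB1 to silence chromatin, above all at transposable elements. These genes arose by tandem duplication, lie in clusters, and encode their finger array in a single 3' exon. HIF-α subunits pair with HIF-1β and bind the hypoxia response element (HRE), here searched as ACGTG or GCGTG on either strand. The E-box CACGTG, bound by other factors of the same structural class, contains ACGTG on both strands.

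The annotation fitted this background. A search for finger-coding codons found 3108 fingers in the 246 genes, with a median of 12 and a maximum of 36 per gene. Of these fingers, 98.6% were encoded in the last exon, and 240 members had at least 90% of their fingers there. The median member was 25901.5 bp long, against 27471 bp for all genes, and its last exon measured 3376.5 bp at the median. Reads of similar copies could be placed wrongly, so exact repeats were counted: 1.06% of the 100-base windows of last exons recurred elsewhere on chromosome 19, as did 0.508% of the windows of promoters. Shorter or inexact repeats were not counted.

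The 18 anti-V5 lists held 213711 peaks in all. The tagged lists had 3984 to 20808 peaks, and the WT lists had 392, 9508 and 743. WT replicate 2 stood apart from the other WT libraries, and replicate 2 was the longest list of every line. The coverage expected per base over the genome, solved from the deposited values, lay between 0.241 and 0.625 fragments. A peak was assigned to a gene when its summit lay in the gene body or within 1 kb of a start (TSS) of a protein-coding transcript. Summits within 1 kb of a start were called promoter summits, the remaining summits in the last exon of the canonical transcript 3' exon summits, and all others other-body summits. The fold of a peak is its fragment pileup over the local background, and a library without a peak has no value, which does not mean that no protein was bound.

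Tagged HIF-α was called at a minority of the members in each library, mostly at the promoter, and less often than at protein-coding genes as a whole. Over the 15 tagged libraries, 20.9% ± 10.1 (SD, n = 15) of the members had a peak anywhere in the gene or promoter, against 30.2% ± 10.9 of all genes. In WT these shares were 4.20% ± 5.92 (SD, n = 3) and 7.20% ± 9.89. The member share was below the share of all genes in 15 of 15 tagged libraries, by 6.05 to 15.5 points. It was also lower than in the 262 ZNF genes of other chromosomes in 15 of 15 libraries, by 8.42 points on average, and lower than in the other 1230 genes of chromosome 19 in 15 of 15, by 7.96 points. These shares are descriptions, and no p is given for them.

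By line, the share of members with a call anywhere was 10.8% ± 6.12 in HIF-2a KIN, 16.8% ± 14.3 in HIF-2a, 27.0% ± 9.15 in HIF-2a/1a, 28.9% ± 5.59 in HIF-1a and 21.1% ± 5.65 in HIF-1a/2a (SD, n = 3 each). At the promoter it was 2.03% ± 2.54 in WT, 9.21% ± 5.90 in HIF-2a KIN, 13.7% ± 13.2 in HIF-2a, 24.3% ± 7.93 in HIF-2a/1a, 26.3% ± 5.46 in HIF-1a and 17.9% ± 4.58 in HIF-1a/2a. The ranges of neighbouring lines overlapped, and within a line the longest list gave the highest share. The part of list length in the order of the lines was not tested beyond the shortened lists described with the processing alternatives.

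**Figure D1:**
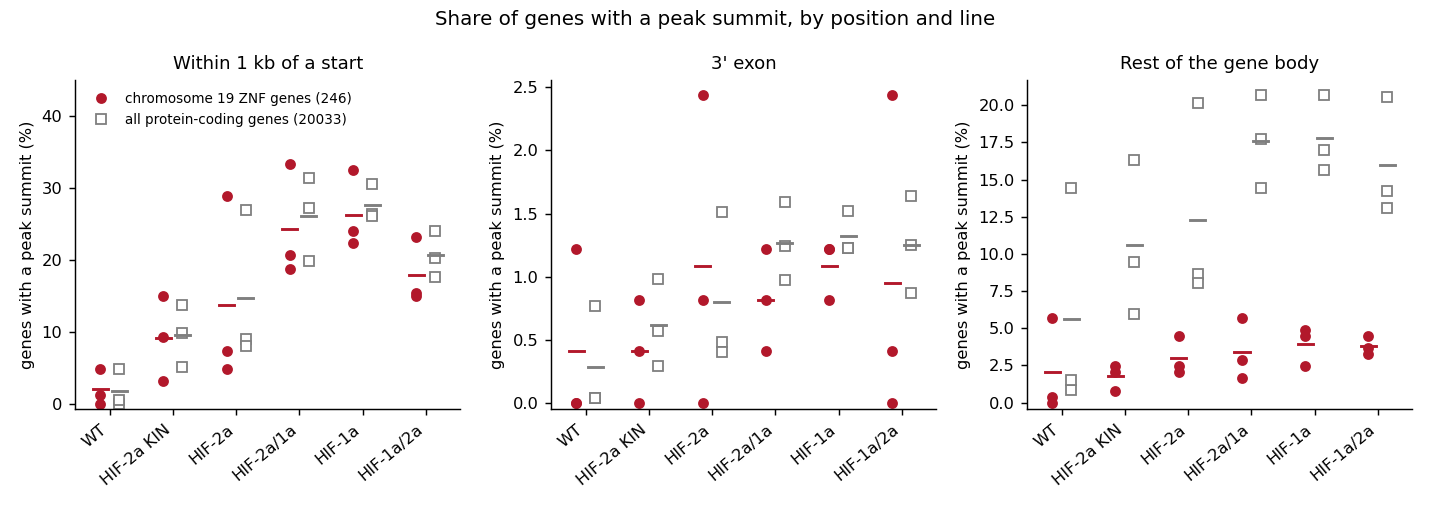
Share of genes with a peak summit at the promoter, in the 3' exon and in the rest of the body, in percent (vertical axes), by line (horizontal axis). Points are single libraries and short lines their means for the 246 chromosome 19 ZNF genes and for all 20033 genes: the promoter shares of the tagged lines run together, while the other-body share of the members, 3.17% on average, lies below that of all genes, 14.8%.

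Against all genes, the gap lay mainly in the gene body, while against other ZNF genes and other genes of chromosome 19 the promoter share was lower as well. The promoter was called at 18.3% ± 9.47 of members and 19.7% ± 8.69 of all genes in the tagged libraries, a mean difference of -1.48 points, with the members lower in 11 of 15 libraries and higher in 4. In WT the promoter shares were 2.03% and 1.81%. Other-body summits were present in 3.17% ± 1.38 of members against 14.8% ± 4.93 of all genes, lower in 15 of 15 tagged libraries. In WT these shares were 2.03% and 5.61%. The 3' exon, which holds the fingers, was called in 0.867% ± 0.766 of members against 1.05% ± 0.448 of all genes, with 0.407% and 0.281% in WT. Compared with the ZNF genes of other chromosomes, the promoter share of the members was 5.88 points lower on average and lower in 15 of 15 libraries. It was 3.34 points lower than for the other genes of chromosome 19, in 14 of 15 libraries.

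Per length of DNA the contrast between the promoter and the finger exon was steep. Promoter windows made up 10.8% of the members' bases but held 83.5% ± 6.53 (SD, n = 15) of their peaks in the tagged libraries. For all genes promoter windows made up 5.47% of the bases and held 41.4% of the peaks. The last exons made up 11.6% of the members' bases and held 2.75% of their peaks. The density was 53.7 ± 28.6 promoter peaks per Mb in members and 52.1 ± 23.4 in all genes. In the 3' exon it was 1.26 ± 1.68 peaks per Mb in members against 5.07 in all genes. In the rest of the body it was 1.09 ± 0.508 against 4.13. The WT densities in members were 1.11 ± 1.93 (SD, n = 3) in the 3' exon and 0.834 ± 1.303 in the rest of the body. Over all genes they were 1.399 and 1.28. Away from the promoter the tagged density of members was thus within the spread of WT. Each peak is counted once here, with the promoter taking precedence, which left 672 promoter, 17 3' exon and 98 other-body peaks over the 15 tagged libraries. In WT 58.2% of the few member peaks were at promoters.

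The promoter peaks sat close to the start. Over 698 pairs of a member and a promoter peak in tagged libraries, the summit was 27.5 bp upstream of the nearest start at the median (-27.5 bp), and the median absolute distance was 108 bp, against 146 bp for all genes. Of these pairs 77.2% lay within 200 bp and 94.3% within 500 bp, against 61.8% and 85.9% for all genes. The median fold was 7.94 at member promoters and 7.80 at all promoters. The local background relative to the genome mean was 3.27 at member promoter peaks and 4.54 at promoter peaks of all genes.

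**Figure D2:**
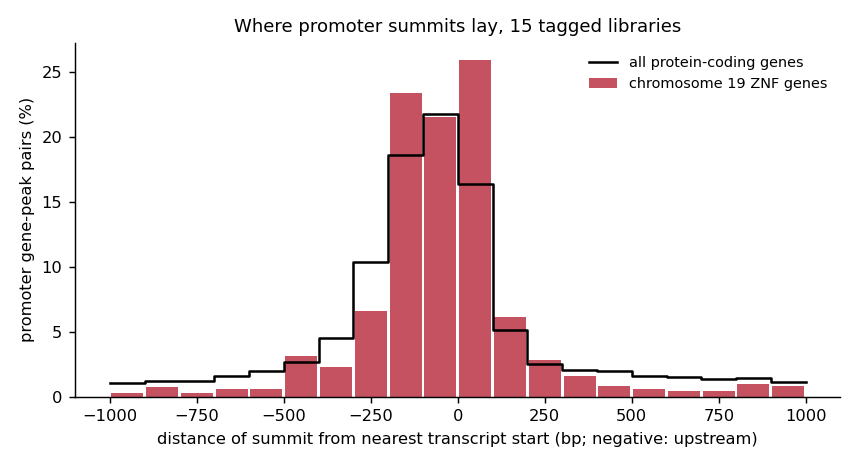
Distance from promoter peak summit to the nearest transcript start, in bp (horizontal axis, negative upstream), as percent of pairs (vertical axis), for members (bars) and all genes (line) in the 15 tagged libraries. Both gather at the start, and 77.2% of the member summits lie within 200 bp of it.

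Few members were called in most of the tagged libraries, and a larger share of members than of all genes was called in at least 1. The promoter was called in at least 1 tagged library at 134 of 246 members (54.5%, against 48.3% of all genes), in at least 8 at 36 (14.6% against 17.6%) and in all 15 at 2 (0.813% against 2.56%). At 112 members (45.5%, against 51.1% of all genes) no library of the 18 had a promoter summit, and 86 members (35.0% against 32.6%) had no call at all. A promoter call in at least 12 tagged and 0 WT libraries was made at 11 members, or 4.47%, against a background of 6.55% of all genes. The 36 members with 8 or more calls resembled the 112 without a tagged call in the number of fingers (median 12 against 13) and in length (26157.5 against 26724.5 bp).

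ZNF470 and ZNF547 were the members called at the promoter in 15 of 15 tagged libraries and 0 of 3 WT libraries. For ZNF470, which encodes 17 fingers, the promoter folds were 7.59, 12.7 and 14.6 in HIF-2a KIN, 7.82, 24.1 and 16.5 in HIF-2a, 33.3, 38.9 and 12.6 in HIF-2a/1a, 13.9, 62.3 and 25.3 in HIF-1a, and 29.9, 48.1 and 26.1 in HIF-1a/2a. The 3 HIF-1a/2a values lay above all HIF-2a KIN and HIF-2a values, and the other lines overlapped. For ZNF547, with 10 fingers, the folds were 6.50, 16.6 and 7.07 in HIF-2a KIN, 16.7, 64.9 and 19.1 in HIF-2a, 15.9, 71.0 and 54.1 in HIF-2a/1a, 16.3, 35.9 and 11.7 in HIF-1a, and 7.68, 18.1 and 8.41 in HIF-1a/2a. HIF-2a/1a was highest at the median here, at 54.1, and the lines overlapped, apart from HIF-2a KIN and HIF-2a, since the highest value of HIF-2a KIN, 16.6, was just under the lowest of HIF-2a. The start of ZNF547 lies within 1 kb of a start of TRAPPC2B, so that this peak cannot be assigned to either gene.

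ZNF432, with 16 fingers, was called at the promoter in 14 tagged libraries. Its folds were 8.31, 13.4 and 5.17 in HIF-2a KIN, 8.71 and 15.3 in HIF-2a replicates 1 and 2, 26.8, 49.1 and 22.7 in HIF-2a/1a, 9.65, 15.7 and 13.4 in HIF-1a, and 12.0, 16.0 and 14.6 in HIF-1a/2a. The 3 HIF-2a/1a values were above all others of this gene. HIF-2a replicate 3 had no promoter peak, but a second summit in the gene body, shared with ZNF841, was called in 11 tagged libraries and made ZNF432 called in 15 of 15. At ZNF653 the folds differed by line: 35.9, 29.7 and 38.6 in HIF-1a and 30.3, 27.0 and 9.04 in HIF-1a/2a, against 3.52, 11.3 and 11.2 in HIF-2a KIN, 3.79 and 10.9 in HIF-2a and 18.3, 11.5 and 7.89 in HIF-2a/1a. Of the libraries with the HIF-1α DBD, 5 lay above every other library and the sixth, at 9.04, among them. The start of another annotated gene without a symbol lies within 1 kb of this summit. The spread was singled out after the values were seen, and folds were not tested.

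The next members had 12 to 14 tagged promoter calls. ZNF667, ZNF460 and ZNF8 were called in 14, ZNF548 in 13, and ZNF526, ZNF93, ZNF586 and ZNF613 in 12. ZNF93, known to silence LINE-1 elements, had folds of 5.13 to 32.5 and a median of 11.2. ZNF8 had the highest median of these, 20.9, with 51.5 in HIF-2a replicate 2, and was the only gene among the 12 with a WT call, at 7.79 in replicate 2. Medians for the others were 12.7 for ZNF667, 8.65 for ZNF460, 14.2 for ZNF548, 11.7 for ZNF526, 11.0 for ZNF586 and 10.7 for ZNF613. The start of ZNF526 lies within 1 kb of a start of DEDD2.

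**Figure D3:**
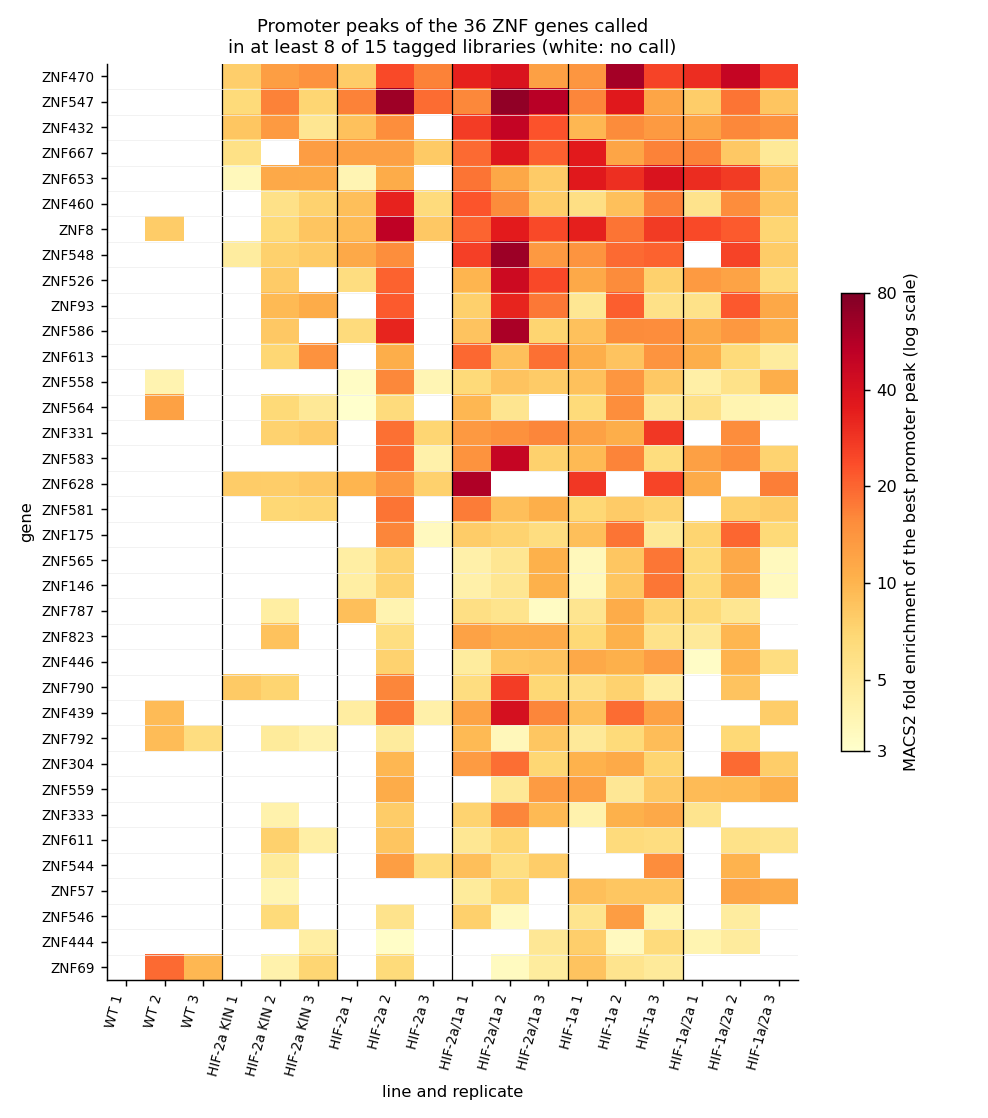
Fold of the strongest promoter peak (colour, log scale) of the 36 members with promoter calls in at least 8 tagged libraries, with genes as rows, from most to fewest calls, and anti-V5 libraries as columns, grouped by line. White cells are libraries without a peak: ZNF470 and ZNF547 are filled in all 15 tagged libraries, and the WT columns are filled at ZNF8, ZNF558, ZNF564, ZNF439, ZNF792 and ZNF69 alone.

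An HRE lay within 50 bp of the promoter summit in 15 of 15 tagged libraries at ZNF470, in 14 of 14 at ZNF667 and in 12 of 12 at ZNF526. At ZNF432 it did in 9 of 14 libraries, at ZNF547 and ZNF653 in 7 of 15 and 7 of 14, at ZNF548 in 7 of 13 and at ZNF613 in 6 of 12. ZNF460 and ZNF93 had 1 such library each, and ZNF8 and ZNF586 had 0. The HRE nearest to the summit of the strongest peak is given here for the 4 members of these 12 where that window held one, in capitals, with up to 30 bases of the hg38 reference on the strand named. ZNF470 is at chr19:56567713-56567742 on the plus strand in the 5' UTR, with the motif 29 bp from the summit. ZNF547 is at chr19:57363368-57363397 on the plus strand, 37 bp away, and ZNF526 is at chr19:42220230-42220259 on the plus strand, 40 bp away. ZNF667 is at chr19:56477634-56477663 on the minus strand, 8 bp away. The ZNF547 copy lies in a tandem run of the same letters, and the ZNF667 copy is part of an E-box.
ZNF470: gtgactgtccggtGCGTGgccgcgaatctg
ZNF547: tgcgtgcgtgcgtGCGTGcgtccgtcctcg
ZNF526: caggcgcaaggtcGCGTGccctgcgctgca
ZNF667: cctcagtgtccacACGTGatctcctgagag

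The design first asks whether a gene was called more often with a tag than without. Fisher's exact test (two-sided) compared the 15 tagged with the 3 WT libraries at each of the 20033 genes, with Benjamini-Hochberg adjustment over all of them. ZNF432, ZNF470 and ZNF547, with a peak in all 15 tagged libraries and in none of the 3 WT libraries, passed (exact p = 0.001225, adjusted p = 0.0457). These 3 members were 1.22% of the 246, against 2.68% of all genes. At an unadjusted p under 0.05 there were 21 members (8.54%), against 12.7% of all genes. For promoter calls alone, 0 members and 0 genes passed (percent called 0, smallest adjusted p 0.0617), and at an unadjusted p under 0.05 there were 19 members (7.72%) against 8.87% of all genes. For the 3' exon 0 members passed with or without adjustment, where 0.314% of all genes had an unadjusted p under 0.05.

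These tests are limited by the number of libraries. They also take the library as the unit, although the 15 tagged libraries come from 5 lines and the 3 WT libraries from a single line. The smallest p that 15 against 3 can give is 0.001225, and at least 492 genes must reach it before any passes the adjustment. It was reached by 537 genes for calls anywhere and by 398 for promoter calls. The 3 calls were lost when any single WT library was left out, including WT replicate 2, and when any single tagged library was left out other than HIF-2a KIN replicate 1, without which there were 4, and HIF-2a replicate 3, without which there were 5. They were also lost, leaving 0 members, when longer lists were shortened to 3984 peaks and when labels were exchanged within replicate numbers only. With a WT library fewer, the smallest p that the test can give is above 0.001225, and too few genes can reach it. The loss without a WT library was therefore fixed by the number of libraries. It decides nothing about these genes or about WT replicate 2. Exchange within replicate numbers likewise raises the smallest p. Leaving out WT replicate 2 moved the WT share of members from 4.20% to 0.813% anywhere and from 2.03% to 0.610% at the promoter.

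Line by line, a promoter was taken as called when at least 2 of 3 libraries had a summit there. This was so for 19 members in HIF-2a KIN (7.72%, against 8.02% of all genes) and 21 in HIF-2a (8.54% against 10.9%). It was so for 52 in HIF-2a/1a (21.1% against 25.2%), 56 in HIF-1a (22.8% against 26.8%) and 36 in HIF-1a/2a (14.6% against 19.1%). In WT there were 3 (1.22% against 0.29%). Thus the members were close to or below the background in every tagged line. At least 1 tagged line called 75 members (30.5%, against 32.2% of all genes), and all 5 called 9 (3.66% against 5.88%), namely ZNF432, ZNF460, ZNF470, ZNF547, ZNF548, ZNF564, ZNF653, ZNF667 and ZNF8. HIF-2a KIN and HIF-2a shared 11 members, which is 57.9% of the first list and 52.4% of the second, where all genes gave 77.0% and 56.8%. HIF-1a and HIF-2a/1a, which have the IDR of HIF-1α in common, shared 36, or 64.3% and 69.2%, where all genes gave 78.7% and 83.4%. HIF-2a and HIF-1a/2a, with the IDR of HIF-2α in common, shared 18 (85.7% and 50.0%, all genes 86.6% and 49.3%). Of the pairs with a DBD in common, HIF-1a and HIF-1a/2a shared 34 (60.7% and 94.4%, all genes 64.0% and 89.8%), and HIF-2a and HIF-2a/1a shared 20 (95.2% and 38.5%, all genes 95.4% and 41.0%). HIF-1a and HIF-2a, with neither in common, also shared 20 (35.7% and 95.2%, all genes 38.2% and 94.1%). The chimeras shared 26 (72.2% of HIF-1a/2a and 50.0% of HIF-2a/1a, all genes 86.3% and 65.2%). The 95.2% of the HIF-2a list was thus reached with and without a common DBD.

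The chimeras ask whether the IDR or the DBD goes with occupancy. Libraries with the HIF-2α IDR had a call at 19.0% ± 10.0 (SD, n = 6) of members and those with the HIF-1α IDR at 27.9% ± 6.86, a difference of -8.94 points. Within replicate numbers the difference was -9.76, -5.69 and -11.4 points, and over all genes it was -10.5 points. By DBD the shares were 21.9% ± 12.1 for HIF-2α and 25.0% ± 6.57 for HIF-1α, a difference of -3.12 points, which was -4.88, 4.07 and -8.54 within replicate numbers and so not of a single sign. Over all genes it was -4.86 points. The spread among the 6 libraries of a side exceeded the difference for the DBD and was close to it for the IDR. The 6 libraries of a side are replicates of a pair of lines, here and in the tests by gene below, and not independent lines. Lists with the HIF-2α IDR had 5906 to 20651 peaks and those with the HIF-1α IDR 12371 to 20808. The part of list length in the difference was not tested.

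Gene by gene, neither domain gave a call. Fisher's exact test of 6 against 6 libraries passed the adjustment at 0 genes for the IDR and at 0 genes for the DBD (percent called 0 and 0), and its smallest p, 0.00216, would have had to be reached by 868 genes, where 15 reached it for the IDR. Without adjustment 0 members had p under 0.05 by IDR, against 0.879% of all genes. By DBD 2 members did in the direction of the HIF-1α DBD (0.813%), against 0.205% of all genes. These were ZNF296, with 6 fingers, and ZNF160, with 20, each called in 6 of 6 libraries with the HIF-1α DBD and 1 of 6 with the HIF-2α DBD (exact p = 0.0152, adjusted p = 1). Labels were also exchanged only within pairs sharing the replicate number and the IDR, and 0 members then had p under 0.05 by DBD. In that setting p falls under 0.05 only if every pair differs in the same direction. At both genes 1 pair was alike, HIF-1a and HIF-2a/1a replicate 2. The 0 was therefore fixed in advance for them and decides nothing.

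ZNF296 had promoter folds of 4.28, 14.1 and 14.2 in HIF-1a, 5.55, 13.9 and 6.48 in HIF-1a/2a, and 14.6 in HIF-2a/1a replicate 2, with no peak in HIF-2a, HIF-2a KIN or WT. ZNF160 gave 6.65, 13.0 and 11.6 in HIF-1a, 5.98, 15.1 and 6.16 in HIF-1a/2a, and 6.90 in HIF-2a/1a replicate 2, and likewise none in HIF-2a, HIF-2a KIN or WT. For both genes the libraries of the HIF-1α DBD were all called, and the single other library was that with the longest list, 20808 peaks. ZNF584 was called in 6 of 6 against 2 of 6 (exact p = 0.0606, adjusted p = 1). In the other direction the largest differences were at ZNF699 (5 calls in the gene in all, 4 against 1), ZNF544 (5 against 2) and ZNF136 (3 against 0). By IDR, ZNF333 and ZNF790 were called in 6 of 6 libraries with the HIF-1α IDR and 2 of 6 with the HIF-2α IDR (exact p = 0.0606, adjusted p = 1), and ZNF440 in 5 against 1 (exact p = 0.0801, adjusted p = 1). ZNF577 and ZNF628 had 5 calls with the HIF-2α IDR against 3, and ZNF563 had 2 against 0. ZNF628 was also called in all 3 HIF-2a KIN libraries.

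Summits in the 3' exon were rare, and many of them lay at the start of a neighbouring gene. Over the 15 tagged libraries there were 32 pairs of a member and a 3' exon summit, in 16 members (6.50%, against 5.09% of all genes). Of the 32, 21 lay in the 3' UTR and 11, in 8 members, in coding sequence. WT had 3 pairs, of which 2 were coding, all in replicate 2. ZNF324 with 8 libraries and ZNF580 with 7 gave 15 of the 32, and all 15 summits lay within 1 kb of a start of the next zinc finger gene, ZNF446 and ZNF581. Without ZNF324 and ZNF580, 17 pairs remained, of which 11 were coding and 6 lay in the 3' UTR. ZNF446 and ZNF581 had a promoter summit in 10 and 11 tagged libraries. The HRE nearest to the strongest of these summits is shown in capitals, in 30 bases of the plus strand of hg38, at chr19:58474858-58474887 for ZNF324, 5 bp from the summit, and at chr19:55643417-55643446 for ZNF580, 32 bp away. The ZNF580 copy reads GCGTG on the other strand. Both were chosen for printing after their values were seen.
ZNF324: aaggcaaaatactACGTGgcgacttggcga
ZNF580: ccccccttccgccCACGCccccgacccttt

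ZNF699 was the only member with a coding 3' exon summit in more than 1 tagged library. It had 4, with folds of 4.53 and 9.57 in HIF-2a replicates 2 and 3 and 8.94 and 10.2 in HIF-2a/1a replicates 1 and 2, and none in WT or in the other 3 tagged lines. Both lines have the HIF-2α DBD, and the test of ZNF699 by DBD gave no call. The summits lay 9296 to 9449 bp from the start of ZNF699, in the array of 14 fingers, and 0 HREs lay within 50 bp of the strongest. ZNF814 had the highest fold of the others, 11.1 in HIF-2a replicate 2. ZNF91, known to silence SVA elements, had 6.23 in HIF-1a/2a replicate 2 with 31 fingers. ZNF432 had 5.78 in HIF-1a replicate 2. In the last exons of ZNF814 and ZNF91, 6.72% and 7.87% of the 100-base windows recurred elsewhere on chromosome 19, and 0 in that of ZNF699. The remaining members named by the rule, ZNF420 (7.18) and ZNF441 (6.23), had a 3' UTR summit in 1 library each.

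The coding stretches under the ZNF699 and ZNF814 summits are shown on the coding (minus) strand of hg38, at chr19:9295705-9295805 and chr19:57873878-57873978, because they are finger sequence. Capitals mark the codons of the zinc-binding cysteines (TGT or TGC) and histidines (CAC or CAT) of fingers found by the search, and a lone capital at an edge is the last base of such a codon.
ZNF699: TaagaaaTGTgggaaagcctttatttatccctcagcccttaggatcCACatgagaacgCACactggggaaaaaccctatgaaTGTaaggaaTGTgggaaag
ZNF814: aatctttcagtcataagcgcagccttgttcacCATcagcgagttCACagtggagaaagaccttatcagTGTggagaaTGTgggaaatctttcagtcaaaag

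Other-body summits were found in 38 members (15.4%), against 41% of all genes, in 120 pairs over the tagged libraries. ZNF507 had the most: an intronic summit at chr19:32374040, 28368 bp from the start, was called in 14 tagged and 0 WT libraries. Its folds were 5.39, 19.0 and 10.7 in HIF-2a KIN, 4.99 and 11.6 in HIF-2a, 12.0, 11.2 and 12.2 in HIF-2a/1a, 18.6, 17.7 and 30.2 in HIF-1a, and 28.6, 20.4 and 14.9 in HIF-1a/2a. Of the tagged libraries only HIF-2a replicate 3 lacked it, and no HRE lay within 50 bp of its strongest summit. ZNF577 had other-body summits in 8 tagged and 0 WT libraries. ZNF586 had them in 7, mostly within 1 kb of a start of ZNF587B or ZNF552, and ZNF627 in 10 tagged and 2 WT libraries. At ZNF627 the WT folds were 17.7 and 7.59 and the tagged folds 4.19 to 21.6, so that the groups overlapped. ZNF507 and ZNF586 were not named here by the rule for body summits and were picked after their values were seen.

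The 4 members called in at least 2 WT libraries show what the antibody gives without a tag. Besides ZNF627 they were ZNF44, ZNF69 and ZNF792, each called in WT replicates 2 and 3 at the promoter. The WT folds of ZNF69 were 19.5 and 9.67, above all of its 8 tagged libraries, which lay between 3.33 and 8.52. At ZNF44 they were 19.8 and 11.9 against 5.07 to 13.7 in 6 tagged libraries, and at ZNF792 9.19 and 6.16 against 3.56 to 9.50 in 10. At these 3 promoters no tagged call was stronger than that of WT replicate 2, apart from 9.50 at ZNF792.

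HREs were more frequent at the summits of member promoter peaks than beside them. In the tagged libraries 36.7% ± 9.52 (SD, n = 15) of these peaks had an HRE within 50 bp of the summit, against 19.6% of equally wide windows placed 1 kb upstream and downstream. The excess was 17.1 ± 9.08 points and above 0 in 15 of 15 libraries, with the highest value, 43.8, in HIF-2a KIN replicate 1, which had 8 such peaks. At promoter peaks of all genes the share was 39.8% ± 2.31 with 18.2% beside them, an excess of 21.6 points. With the longer motif TACGTG alone, the excess at member promoter peaks was 4.03 points. All of these motifs hold CG, and the windows 1 kb away were not matched to the summits for GC or CG content. The part of base composition in the excess was not tested. The 15 WT peaks at member promoters held an HRE in 20.8% on average over the 2 libraries that had any, against 31.2% beside them. By line the member share was 43.9% in HIF-2a KIN, 35.9% in HIF-2a, 36.4% in HIF-2a/1a, 33.3% in HIF-1a and 33.7% in HIF-1a/2a, all above the flanks (17.5% to 21.6%).

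Counted by region and not by library, 41 of the 147 merged member promoter regions with a tagged call (27.9%) had an HRE at the best summit, and 9 of the 35 called in at least 8 tagged libraries (25.7%). In all, 215 merged regions lay at members. Of these, 200 had a tagged call, 87 had a call in 1 tagged library only, and 15 had WT calls alone. Most of the promoter regions in members thus had no ACGTG or GCGTG within 50 bp of the best summit. This count uses 1 summit per region. ZNF432, ZNF653, ZNF548 and ZNF613 count as without, although 9 of 14, 7 of 14, 7 of 13 and 6 of 12 of their libraries had an HRE. The same count over regions of all genes is not given. By library, most promoter peaks lacked the motif in both sets, with 36.7% of member peaks and 39.8% of those of all genes holding it.

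**Figure D4:**
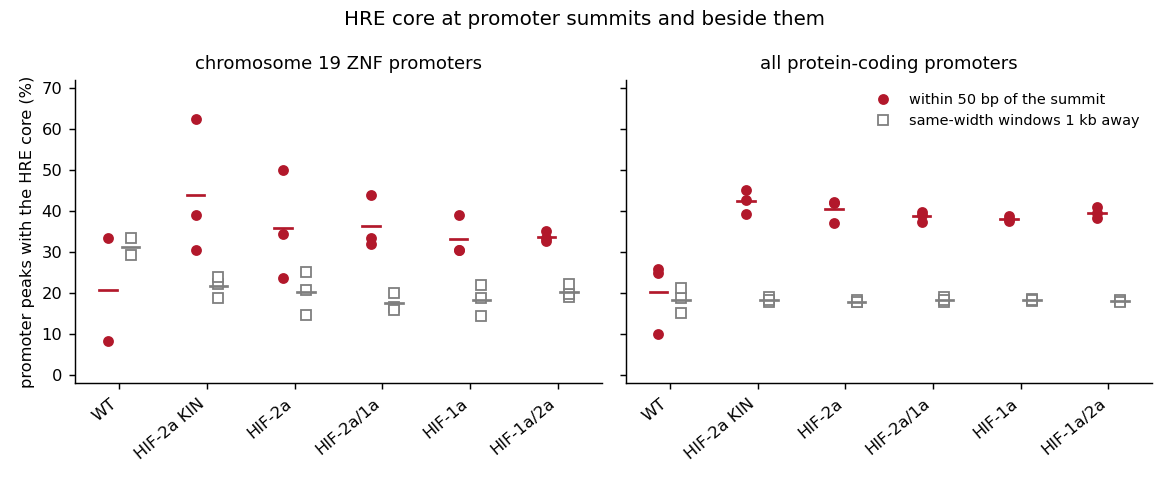
Percent of promoter peaks with ACGTG or GCGTG within 50 bp of the summit (vertical axis) in each anti-V5 library by line (horizontal axis), for members (left) and all genes (right). Filled points are libraries, open squares the windows 1 kb away, and short lines the means. The members average 36.7% over the tagged libraries and their flanks 19.6%.

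The promoter sequence itself was also compared. RefSeq promoters of hg38, from 250 bases before to 50 after the start, were matched for 216 of 246 members and 15351 of 20033 genes. ACGTG or GCGTG was present on either strand in 61.1% of the member promoters and in 56.2% of all promoters. Among members it was present in 58.9% of those with 0 tagged promoter calls, 60.5% of those with 1 to 7 and 68.6% of those with 8 to 15. Over all genes these shares were 45.9%, 62.2% and 73.1%. The uncalled members therefore held the motif more often than uncalled genes did, without a test of that difference. The median GC content was 59.8% in members and 63.0% in all genes.

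Occupancy differed along the chromosome. Members were grouped wherever the gap between neighbours was under 1 Mb, which gave 16 groups, 9 of them with at least 5 members. In the 59 members from ZNF628 to ZNF446, at the end of the long arm, the promoter was called at 28.2% ± 11.2 (SD, n = 15) in the tagged libraries, with 15 members called in at least 8. The 50 other genes in that span gave 14.9%. In the 25 from ZNF653 to ZNF791 the share was 24.8% ± 13.2, in the 26 from ZNF565 to ZNF573 it was 20.0% ± 14.3, and in the 39 from ZNF175 to ZNF331 it was 15.4% ± 8.61. Among the 9 larger groups the lowest shares were 6.49% ± 6.28 in the 37 members from ZNF101 to ZNF254, the group that includes ZNF91 and ZNF93, and 4.72% ± 4.69 in the 24 from ZNF575 to ZNF296, where the 31 other genes gave 13.1%. In these groups 67.6% and 66.7% of the members had no promoter call in any library. ZNF93, with 12 tagged calls, was the only member of its group called in 8 or more.

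Most of the WT promoter calls in replicate 2 fell in the group from ZNF653 to ZNF791. The WT promoter share there was 13.3% on average, as it was in the 5 members from ZNF302 to ZNF792, and WT replicate 2 called 8 of these 25 members, out of 12 members it called in all. That library had 10.4 peaks per Mb in this span and 5.43 in the rest of chromosome 19. ZNF44, ZNF69 and ZNF627 belong to this group, and its tagged share is to be read beside that WT share. Copy number was not measured, and the part of the WT signal in the tagged share was not tested.

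**Figure D5:**
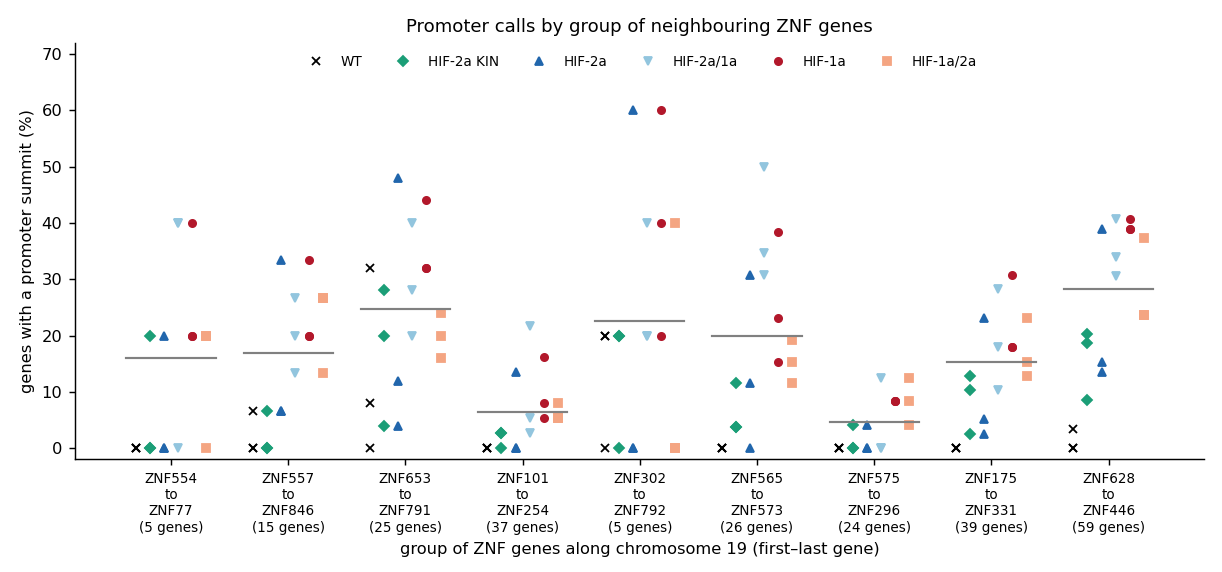
Percent of members with a promoter summit (vertical axis) in the 9 groups of at least 5 members, in chromosomal order (horizontal axis). Points are libraries by line, and grey lines the means over the tagged libraries. The group ending at ZNF446 is high at 28.2%, the groups from ZNF101 to ZNF254 and from ZNF575 to ZNF296 are low at 6.49% and 4.72%, and the groups from ZNF653 to ZNF791 and from ZNF302 to ZNF792 have WT shares of 13.3% each.

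A set of genes taken as partners of KRAB proteins was read from the same peak lists, and whether each has that role was not tested. Among 17 such genes, the promoter was called in 33.3% ± 16.9 (SD, n = 15) of cases in tagged libraries and in 0 WT libraries, against 19.7% ± 8.69 and 1.81% for all genes. TRIM33 passed the adjusted test (15 of 15 against 0 of 3, exact p = 0.001225, adjusted p = 0.0457), or 1 of 17 against 2.68% of all genes, and it no longer passed when any WT library was left out, with the longer lists shortened or with the replicate block. As for the members, the loss without a WT library was fixed by the number of libraries. CBX1, a heterochromatin protein, had 13 tagged calls (exact p = 0.0123, adjusted p = 0.196). TRIM24 had 11 tagged calls and PPHLN1, of the silencing complex HUSH, had 9. TRIM28 itself, which lies on chromosome 19, had 0 calls, as did TASOR and MPHOSPH8, also of HUSH, while SETDB1 had 2. The 18 related chromosome 19 genes named ZFP, ZSCAN, ZIM, ZIK, ZKSCAN or ZBTB had a promoter share of 14.8% ± 11.4, and 9 of them had 0 tagged promoter calls. ZSCAN22 had the most, 11, and 0 of the 18 passed the adjusted test.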

How the data were processed

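Cut&Run libraries were grouped by the line and antibody in their titles, and replicates were stated as biological. The authors aligned reads to hg38 with Bowtie2 2.3.4.1, called peaks for each anti-V5 library against IgG with MACS2 (q 0.01, maximal gap 400, duplicates kept), and removed blacklisted regions with bedtools 2.28.0. No filter on mapping quality is named. The deposited peak lists give a fold enrichment (a ratio of pileup to local background), a −log10 p, a −log10 q and a summit. IgG libraries enter only through these calls. The lists give no read totals, so the expected coverage was worked out from the deposited fold with its −log10 p, and intervals or floors that need counts are not given.

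Genes were the protein-coding genes of GENCODE release 44 on chromosomes 1 to 22, X and Y. The members and all gene lists were chosen with earlier results of these data known. Named are the 12 members with the most tagged promoter calls, the 8 with the most 3' exon calls, 3 per direction by IDR and by DBD, and up to 5 called in at least 2 WT libraries, with ties broken by fewer WT calls and then by higher fold. Sequence was printed for up to 8 of the 12 with an HRE at the summit and for coding stretches of up to 4 of the 8. Fisher's exact test was Benjamini-Hochberg adjusted over 20033 genes. In simulated data 200 genes changed in all libraries gave 0 calls. With a further draw of 600 genes changed beside those 200, all 600 were called. The alternatives were a stricter q, lists shortened to the length of the shortest tagged list, overlap in place of the summit, other start sets, windows and motifs, removal of WT regions, each library left out, and replicate blocks. Analyses used Python 3.11.15, NumPy 2.4.6, SciPy 1.17.1, pandas 2.3.3 and matplotlib 3.10.9.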

Additional observations from a re-analysis of the deposited data

How the results depend on the processing

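Of 225 alternative values, 202 kept the reported call or stayed within the spread, 23 moved and 0 reversed. Among the 202, 26 for promoter calls, 28 for the 3' exon, 21 by IDR and 21 by DBD were counts that stayed at 0. The adjustment makes such counts hard to raise. The 1 count above 0, of members called more often in tagged than WT libraries anywhere, stayed in 8 alternatives and moved in 19. With each longer list shortened to its 3984 strongest peaks (WT replicates 1 and 3, with 392 and 743 peaks, stayed whole, so WT and tagged lists were not made equal), the count of members called more often in tagged than WT libraries fell from 3 to 0, and the tagged minus WT share fell from 16.7 to 3.04 points anywhere and from 16.2 to 2.79 points at the promoter. Then 4.69% of members and 6.68% of all genes were called at the promoter in tagged libraries. Testing only called genes gave 2 members for promoter calls (0 over all genes), which follows from fewer genes tested. With the stricter motif TACGTG in place of ACGTG or GCGTG, the HRE excess was 4.03 points in place of 17.1. With each library left out in turn, the count ranged from 0 to 5, the tagged minus WT share from 14.6 to 20.1 points anywhere, 15.2 to 17.7 at the promoter and 0.257 to 0.867 in the 3' exon, and the HRE excess from 15.2 to 17.8 points, and all other counts stayed at 0. With only the coding part of the last exon, the 3' exon share was 0.298% in members and 0.224% in all genes, so that the members were no longer the lower, but the WT shares were 0.271% and 0.0449%, a tagged minus WT difference of 0.0271 points in members. The titles do not say that equal replicate numbers belong together. The serial numbers of the libraries, however, run consecutively over the 6 lines within each replicate number. Whether such libraries were prepared together is not stated and was not tested, and the main test ignores it. The deviations of same-numbered samples correlated weakly (r from -0.0145 to 0.174, above 0 in 41 of 45 pairs and over 0.1 in 8), which was not taken as pairing, although replicate 2 was the longest list of every line. The replicate block gave 0 members in place of 3, where the smallest p it allows is 0.00463. No other count of adjusted calls changed under it, while members at an unadjusted p under 0.05 went from 21 to 16 anywhere, from 19 to 15 at the promoter and from 2 to 0 by DBD. For the IDR and the DBD its blocks were pairs sharing the replicate number and the other domain.

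Peak lists hold calls, so a site just under the threshold and an unbound site look alike, and with 3 WT libraries few patterns can pass.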
